A study of Mus musculus with 2 samples.

Results

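The Notch pathway genes Notch1, Notch4, Dll4, Jag1, Jag2, Hes1, Hey1, Rbpj and Adam10 were followed in single endothelial cells of mouse tumours. They were taken by name and are 9 of the 19831 genes in the deposited tables. Both groups were endothelial cells sorted on CD31, a surface protein of endothelium, from tumours of adult C57BL/6 mice, and single-cell 3′ libraries were made from them on the 10x Chromium system. One group was the control and the other was labelled NF2 KO, a knockout of Nf2, which encodes merlin. Each group was 1 deposited library. Its cell barcodes carried 2 prefixes, and the cells of each prefix are here called a run. The sources used here do not give the tumour, the number of mice, the deleted part of Nf2, the cells it was deleted in or what the runs were.

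Notch signalling passes between touching cells. A ligand of the Delta or Jagged family on one cell binds a Notch receptor on its neighbour, ADAM10 cuts the receptor outside the membrane, gamma-secretase cuts it inside, and the freed part enters the nucleus to bind RBPJ and switch on genes of the Hes and Hey families. In growing vessels, DLL4 on tip cells acts on NOTCH1 of the neighbouring stalk cells and limits further sprouting, and Notch signalling also supports arterial identity. Merlin acts upstream of the Hippo kinases, which restrain YAP and TAZ, and these act in the nucleus with TEAD factors.

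Levels are given as CPM, the unique molecular identifiers (UMIs, each standing for 1 captured RNA molecule) of a gene per 1000000 UMIs summed over the retained cells of a library. There were 1346 retained control cells with 28928102 UMIs and 2753 retained cells of the NF2 KO library with 53276796 UMIs, and the median cell held 18432 and 17119 UMIs. Pairs of runs shared 0 or 1 cell barcodes, so the runs of a library held different cells and were not the same cells read again. Control run 1 stood apart before cells were removed: a shallow group of cells led by the neutrophil genes S100a9 and S100a8 (cluster 3, left out) had 507 cells of control run 1, 12 of control run 2 and 16 of the NF2 KO library. Nf2 itself read 21.6 and 22.8 CPM in the control runs and 20.5 and 20.4 CPM in the NF2 KO runs, a ratio of 0.920 (95% interval 0.834 to 1.02), and since 3′ UMIs need not lie in the deleted part this does not check the label. The summed level of 14 pan-endothelial markers was 9182 CPM in control and 7528 CPM in NF2 KO cells. Lists for other cells differed widely. T or NK cell markers summed to 1.28 and 1.33 CPM, macrophage or monocyte markers to 60.2 and 70.0 CPM and neutrophil markers to 78.4 and 83.2 CPM. B cell markers summed to 81.4 and 106 CPM and erythroid markers to 46.4 and 22.6 CPM. Pericyte or smooth muscle markers were highest among these, at 721 and 354 CPM.

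Promoter letters are shown for 4 members whose values are set against each other in what follows. Dll4, Notch1 and Notch4 were lower in the NF2 KO library and Rbpj was not. RefSeq (GRCm38.p6) gave 8 windows for 7 members, and Hes1 and Hey1 were not among them. The 250 bases before the annotated start were searched on both strands for the RBPJ core TGGGAA, found in 21.6% of 32851 windows of the same length, and for the TEAD core GGAATG, found in 12.6%. The 2 motifs can overlap each other. The RefSeq starts of Notch1, Notch4 and Rbpj lie inside the GENCODE spans given for these genes in what follows, which run from the outermost transcript start, so the 2 annotations do not begin them at the same base. Matches are in capitals, and each line runs 5′ to 3′ on the strand of the gene.
Dll4 (chr2:119325534-119325783, plus strand): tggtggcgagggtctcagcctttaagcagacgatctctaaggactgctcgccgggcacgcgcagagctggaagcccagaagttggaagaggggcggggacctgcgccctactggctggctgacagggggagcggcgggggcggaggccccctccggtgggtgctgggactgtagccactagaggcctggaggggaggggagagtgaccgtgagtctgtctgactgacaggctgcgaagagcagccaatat
Notch1 (chr2:26503823-26504072, minus strand): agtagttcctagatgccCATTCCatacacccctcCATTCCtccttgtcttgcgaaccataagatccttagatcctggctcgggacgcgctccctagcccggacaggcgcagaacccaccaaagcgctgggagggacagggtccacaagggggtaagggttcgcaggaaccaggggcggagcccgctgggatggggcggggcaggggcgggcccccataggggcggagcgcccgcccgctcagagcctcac
Notch4 (chr17:34564045-34564294, plus strand): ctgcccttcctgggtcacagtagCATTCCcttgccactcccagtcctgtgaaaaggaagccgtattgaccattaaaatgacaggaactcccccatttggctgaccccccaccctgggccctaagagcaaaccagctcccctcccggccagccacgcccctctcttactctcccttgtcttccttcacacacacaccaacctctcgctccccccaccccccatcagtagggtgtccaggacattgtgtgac
Rbpj, first window (chr5:53590096-53590345, plus strand): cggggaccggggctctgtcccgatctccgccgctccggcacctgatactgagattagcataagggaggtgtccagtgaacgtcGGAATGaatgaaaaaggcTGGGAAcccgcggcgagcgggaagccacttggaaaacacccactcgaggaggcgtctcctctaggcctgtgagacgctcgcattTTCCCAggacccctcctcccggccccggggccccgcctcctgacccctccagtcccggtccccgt
The Notch1 window held 2 matches to the TEAD core, which began 233 and 216 bases before the start. The Notch4 window held 1, at 227 bases. The first Rbpj window held 1 TEAD core at 167 bases and 2 RBPJ cores at 149 and 65 bases. A second Rbpj window overlapped it and held 1 RBPJ core, the same site as the core at 65 bases in the first. The Dll4 window had neither, nor did those of Jag1, Jag2 and Adam10. So the TEAD letters were present in 3 members, 2 of them lower in the NF2 KO library and 1 not. A match is a string of letters and not a shown binding site.

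Across the pathway, ligand, receptor, protease and target RNA was lower in the NF2 KO library, and Rbpj was level. A gene was called when the 2 libraries differed at least 1.5-fold, the exact 95% interval of their ratio excluded 1 and the mean of the 2 levels was at least 20 CPM. By this size rule 6 of the 8 members past the CPM minimum were lower (Dll4, Notch1, Notch4, Adam10, Hes1 and Hey1), against 5.29% of all 5840 genes past it. None was higher, against 2.83% of all genes. The median log2 ratio of the 8 was −0.64, against −0.03 over all 5840 genes. With 1 library per group there is no test between conditions, and all intervals cover counting error only. The members and gene lists were chosen with earlier results of these data known, so the shares over all genes do not test them.

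Between the 2 runs of a library no member that could be tested passed the size rule. Past the CPM minimum within the library, none of 9 members passed the size rule between the control runs, where 0.768% of genes did, and none of 7 between the NF2 KO runs, where 1.14% did. Hey1 and Jag1 were under that minimum in the NF2 KO library, where Hey1 in run 2 was 1.53 times its level in run 1 (1.19 to 1.98). In 7 of the 8 members past the minimum both NF2 KO runs lay below both control runs. That was so for 64.5% of all genes in one direction or the other, so separation of the runs alone says little about the members.

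**Figure D1:**
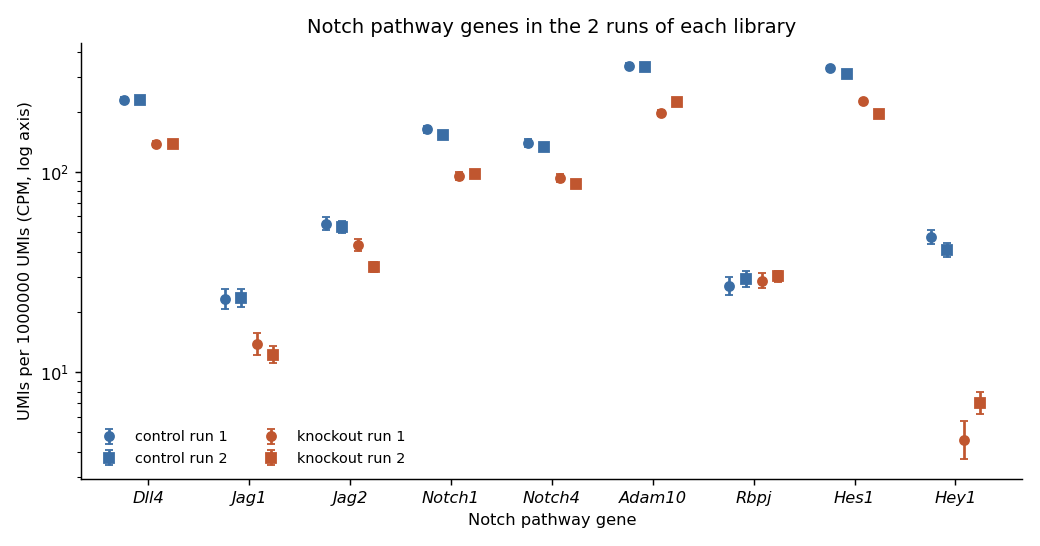
Level of each Notch pathway gene (CPM, log axis) in the 2 runs of the control library (blue) and of the NF2 KO library (orange), with exact 95% Poisson intervals as bars. Hey1 shows the widest gap, from 40.8 and 47.5 CPM in control to 4.60 and 7.04 CPM, and the 4 Rbpj points overlap.

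Among the ligands, Dll4 (ENSMUSG00000027314.6, chromosome 2, 119325784 to 119335962, GRCm38, plus strand), the Delta-like ligand of sprouting endothelium, read 230 and 228 CPM in the control runs and 138 and 137 CPM in the NF2 KO runs. The runs of a library were nearly equal and the libraries did not overlap. Dll4 was 1.67-fold lower (95% interval 1.61 to 1.72). Jag1 (ENSMUSG00000027276.7, chromosome 2, 137081456 to 137116644, minus strand), which can oppose DLL4 in sprouting vessels, read 23.2 and 23.5 CPM in control and 13.9 and 12.2 CPM in NF2 KO cells. Its ratio was 0.548 (0.492 to 0.610) with no overlap of runs, but its mean level was under the CPM minimum and it was not called. Jag2 (ENSMUSG00000002799.6, chromosome 12, 112907819 to 112929776, minus strand), the second Jagged ligand, read 55.2 and 53.4 CPM against 43.4 and 33.5 CPM. Its ratio of 0.682 (0.638 to 0.729) did not reach 1.5-fold, and its NF2 KO runs differed more from each other (ratio 0.771) than its control runs (0.966).

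Both receptors were lower by similar amounts. Notch1 (ENSMUSG00000026923.15, chromosome 2, 26457903 to 26516663, minus strand), the receptor needed for vessel development, read 163 and 153 CPM in control and 95.6 and 98.1 CPM in NF2 KO cells. It was 1.63-fold lower (1.56 to 1.69) and its runs did not overlap. Notch4 (ENSMUSG00000015468.14, chromosome 17, 34564268 to 34588503, plus strand), a receptor largely restricted to endothelium, read 139 and 133 CPM against 93.6 and 86.8 CPM. It was 1.52-fold lower (1.46 to 1.59), just past the threshold.

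Adam10 (ENSMUSG00000054693.14, chromosome 9, 70678997 to 70780229, plus strand), the protease that cuts ligand-bound receptors, read 340 and 333 CPM in control and 198 and 224 CPM in NF2 KO cells. It was 1.57-fold lower (1.53 to 1.61). Rbpj (ENSMUSG00000039191.12, chromosome 5, 53466152 to 53657362, plus strand), the DNA-binding partner of cleaved Notch, read 27.0 and 29.3 CPM against 28.7 and 30.1 CPM. The runs overlapped, and the ratio of 1.05 (0.964 to 1.14) excludes a change of 1.5-fold between these libraries. Rbpj was thus the member that kept its level while its upstream and downstream partners were lower.

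The targets differed from each other in size. Hes1 (ENSMUSG00000022528.8, chromosome 16, 30064384 to 30067796, plus strand), a transcriptional repressor that other pathways also induce, read 329 and 307 CPM in control and 226 and 194 CPM in NF2 KO cells, 1.55-fold lower (1.505 to 1.59). Hey1 (ENSMUSG00000040289.8, chromosome 3, 8663359 to 8667256, minus strand), a repressor that is a direct Notch target in endothelium, read 47.5 and 40.8 CPM against 4.60 and 7.04 CPM, or 1272 UMIs against 329. It was 7.12-fold lower (6.30 to 8.06). The Hey1 interval lies wholly outside that of every other member.

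The calls rest partly on which cell groups each library held. Cluster 4 (led by Gal, Kcnj8 and Ildr2) held 512 control and 15 NF2 KO cells, and cluster 0 (led by Chga, F2rl1 and Cldn4) held 18 and 897. With cluster 4 left out 3 members were called lower (Dll4, Notch1 and Hey1), and the ratios of Notch4, Hes1 and Adam10 became 0.736, 0.724 and 0.717. With both clusters left out 5 were called, without Hes1 at a ratio of 0.716. The share of 5.29% belongs to all retained cells, and the shares of all genes with these clusters left out are not given here. In a summed level, fewer cells of a kind and less RNA per cell cannot be told apart. Markers of pericytes or smooth muscle moved with the members: the 12 genes summed to 762 and 684 CPM in the control runs and 344 and 360 CPM in the NF2 KO runs. The 3 of them past the CPM minimum were all lower (Mcam, Kcnj8 and Abcc9), against 5.29% of all genes. The defining markers Pdgfrb and Cspg4 were near 0, at 0.173 and 0.0346 CPM in control and 0.244 and 0.0563 CPM in NF2 KO cells.

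Other genes of the pathway moved less. Of 81 further genes grouped by role, 46 passed the CPM minimum, and 7 of these were called lower and 0 higher. Over all 5840 genes the shares were 5.29% lower and 2.83% higher, and the counts by role that follow are read beside these. The median log2 ratio of the 46 was −0.20. The other receptors were near 0: Notch2 read 0.830 and 1.14 CPM and Notch3 0.207 and 0.488 CPM in control and NF2 KO cells. Of 7 other ligands only Egfl7, a secreted endothelial protein that binds Notch, passed the minimum, at 1276 and 1023 CPM (ratio 0.802), and Dll1 read 10.4 and 8.88 CPM.

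Of 10 other targets 2 passed the CPM minimum and 1 was lower. Efnb2, which encodes the arterial marker ephrin-B2, read 103 and 101 CPM in the control runs and 15.9 and 19.1 CPM in the NF2 KO runs, 5.69-fold lower (5.29 to 6.13). Nrarp, a Notch-induced inhibitor of Notch signalling, read 130 and 104 CPM and its ratio of 0.804 (0.771 to 0.838) did not pass. So the targets with enough UMIs ranged from a ratio of 0.140 for Hey1 to 0.804 for Nrarp. Hey2, which acts in arteries, was near 0 at 0.138 and 0.263 CPM. The list of arterial markers, which does not hold Efnb2, summed to 547 CPM in control and 1385 CPM in NF2 KO cells, the other direction from Efnb2. Of its 6 genes past the CPM minimum 3 were higher (the chemokine gene Cxcl12, Clu and the endothelin gene Edn1) and 1 was lower (Vegfc), with a median log2 ratio of 0.86. Over all genes 2.83% were higher and 5.29% lower. Under the minimum, the gap junction gene Gja4 read 12.4 and 2.78 CPM and Sema3g 19.9 and 5.05 CPM. Both went against the direction of the list sum and were chosen after their values were seen. The other arterial genes under the minimum are not given here.

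Among 11 further genes of receptor processing 7 passed the minimum and 1 was lower: Furin, which cuts the receptor precursor, at 63.95 and 39.98 CPM (ratio 0.625). The gamma-secretase subunit genes Ncstn and Aph1a had ratios of 0.774 and 0.833, Psenen 1.11 and Psen2 1.01, so none of them was called. The fringe gene Mfng, which adds sugars to receptors, had a ratio of 0.754 and was not called. None of 5 tested genes of ligand endocytosis, 5 of receptor turnover or 4 of nuclear coactivation was called. Of 11 tested corepressor genes 1 was lower, L3mbtl3, whose product binds RBPJ, at 27.7 and 18.2 CPM (ratio 0.656).

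The list of factors known to act upstream of Dll4 held 13 genes, 10 of them past the minimum. Of these 4 were lower, against 5.29% of all genes. Sox18, a transcription factor of endothelium, read 375 and 215 CPM (ratio 0.573). The VEGF receptor genes Flt1 and Flt4 read 1141 and 620 CPM (0.543) and 65.3 and 32.8 CPM (0.502). Nrp1, a co-receptor for VEGF, read 191 and 109 CPM (0.570).

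Within groups of similar cells the members were again lower or level. Cells were clustered without the 9 members and the 81 further genes, and 5 clusters had at least 30 cells of each library. Cluster 1 was led by Cd74, Cxcl10 and Ubd and cluster 2 by Ramp3 and Ednrb. Cluster 6 was led by the hypoxia genes Vegfa, Bnip3, Egln3 and Slc2a1. Cluster 7 was led by mitosis genes such as Cdc20, and cluster 9 by the histone genes Hist1h1b, Hist1h2ap and Hist1h2ae and then Top2a. S-phase markers were highest in cluster 9, at 1978 CPM in control and 2147 CPM in NF2 KO cells. Clusters 7 and 9 are here called cycling. Of the 45 ratios of 9 members in these 5 clusters, 41 were below 1, 33 had an interval wholly below 1 and none had one wholly above 1. The same counts were not made over all genes within the clusters. In all retained cells 56.7% of the 5840 genes past the CPM minimum were below 1. The other 4 ratios above 1 were those of Jag1 and Rbpj.

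Hey1 was below control in each of the 5. Its levels in control and NF2 KO cells were 58.3 and 10.1 CPM in cluster 1, 88.4 and 11.3 CPM in cluster 2, 11.3 and 3.08 CPM in cluster 6, 34.9 and 5.23 CPM in cluster 7 and 23.9 and 5.75 CPM in cluster 9. The folds ran from 3.66 (1.90 to 7.27) in cluster 6 to 7.84 (6.09 to 10.2) in cluster 2. Dll4 had ratios of 0.693, 0.723, 0.677, 0.575 and 0.470 in clusters 1, 2, 6, 7 and 9, each with an interval below 1. Adam10 had ratios of 0.577 to 0.708 in the 5 clusters, also all below 1 with their intervals.

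By the size rule the count of members called lower differed by cluster. In cluster 1 it was 4 of 8 tested (Notch1, Notch4, Hey1 and Adam10), against 5.22% of all genes tested there. In cluster 2 it was 2 (Notch1 and Hey1), against 5.36%. In the hypoxia-like cluster 6 it was 2 (Jag1 and Jag2), against 8.55%. Hey1 was under the CPM minimum there and in cluster 9. Notch1 and Notch4 in cluster 6 had ratios of 0.893 (0.771 to 1.03) and 0.918 (0.799 to 1.06). In cluster 7 it was 6 (Dll4, Notch1, Notch4, Adam10, Hes1 and Hey1), against 7.74%, and in cluster 9 it was 4 of 7 (Dll4, Notch4, Adam10 and Hes1), against 5.49%. Hes1 had its lowest ratios in the 2 cycling clusters, 0.526 (0.463 to 0.598) and 0.595 (0.545 to 0.650). Its ratio was 0.919 (0.840 to 1.01) in cluster 2.

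**Figure D2:**
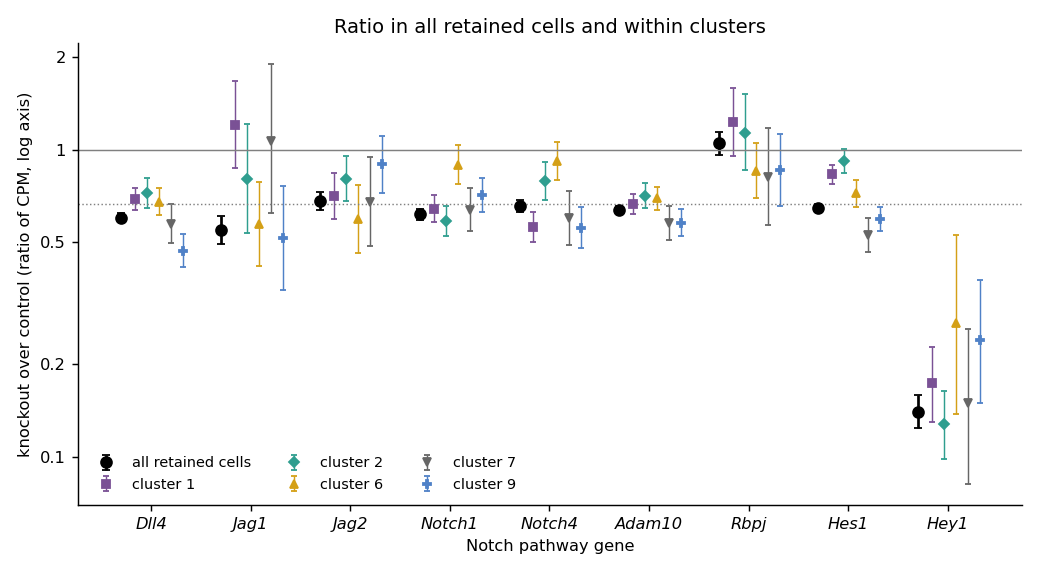
Ratio of the NF2 KO to the control level (log axis) for each gene, in all retained cells (black) and in each cluster with at least 30 cells of both libraries, with exact 95% intervals. The solid line is a ratio of 1 and the dotted line the 1.5-fold threshold; Hey1 lies lowest, between 0.128 and 0.273 in the clusters.

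Clusters 0 and 4 give the levels within nearly single libraries. In cluster 0 the 897 NF2 KO cells had Dll4 at 158 CPM, Notch4 at 106 CPM, Notch1 at 78.1 CPM and Hey1 at 3.59 CPM. In cluster 4 the 512 control cells had Dll4 at 251 CPM, Notch4 at 156 CPM, Notch1 at 154 CPM and Hey1 at 42.8 CPM. Cluster 4 gave 41.0% of the control Hey1 UMIs and 46.3% of the control Dll4 UMIs, and cluster 0 gave 40.9% of the NF2 KO Dll4 UMIs. Since each cluster is almost all of 1 library, the state and the library cannot be told apart there.

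Across the clusters Hey1 varied widely in control cells. In clusters with at least 30 control cells its level was highest in cluster 2 (88.4 CPM, 77.6 to 100), then cluster 1 (58.3, 52.2 to 64.8), cluster 4 (42.8, 39.2 to 46.6), cluster 7 (34.9, 26.5 to 45.1) and cluster 9 (23.9, 18.7 to 30.03), and lowest in the hypoxia-like cluster 6 (11.3, 7.43 to 16.4). The intervals of clusters 4 and 7 overlapped, as did those of clusters 7 and 9. In NF2 KO cells clusters 1, 2 and 8 read 10.1, 11.3 and 10.5 CPM with overlapping intervals. The 107 NF2 KO cells of the venous-like cluster 10 (led by Ackr1, Selp and Sele) had 0 Hey1 UMIs of 1626821. The level of 3 UMIs there is 1.84 CPM, and the exact 95% interval of the level reaches 2.27 CPM.

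Dll4 had another order. By the same limit it was highest in control in cluster 6 (260 CPM, 240 to 281) and cluster 4 (251, 242 to 260), whose intervals overlapped, and it was 179 CPM (163 to 195) in cluster 2, where Hey1 was highest. In clusters with at least 30 NF2 KO cells it ran from 176 CPM (165 to 188) in cluster 6 to 32.0 CPM (23.9 to 41.9) in the venous-like cluster 10. Notch4 was also lowest there, at 18.4 CPM (12.4 to 26.3), while Notch1 read 117 CPM. Among clusters with at least 30 cells of the library Rbpj was highest in cluster 6 in both libraries, at 62.6 CPM (53.0 to 73.5) in control and 53.5 CPM (47.4 to 60.2) in NF2 KO cells.

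**Figure D3:**
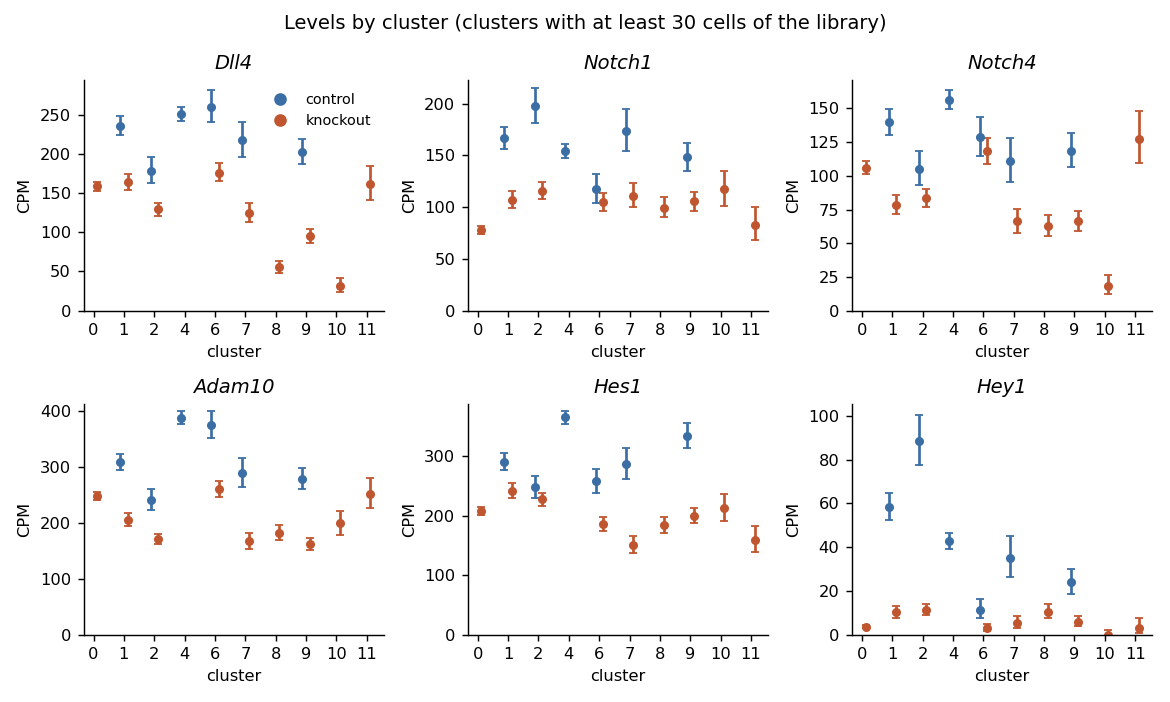
Level (CPM) of 6 Notch pathway genes in each cluster with at least 30 cells of the library, for control (blue) and NF2 KO cells (orange), with exact 95% Poisson intervals. Dll4 and Notch4 drop in cluster 10, and control Hey1 peaks in cluster 2 at 88.4 CPM and is lowest in cluster 6 at 11.3 CPM.

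The same genes were read along ranges of marker lists. Within each run the 20% of cells with the most UMIs from a list, after thinning to 5000 UMIs per cell, were set against the other cells. Notch pathway genes were taken out of the lists first, and these are ranges rather than cell types: of 1256 control and 2657 NF2 KO cells, 45 and 70 lay within 1 UMI of the limit of the tip-cell list. Ties at the limit make the upper range less than 20% for some lists, such as 195 control cells for the arterial list.

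Cells high for tip markers had more Dll4 in both libraries. Dll4 read 273 CPM against 218 CPM in the other control cells, a ratio of 1.254 (1.19 to 1.33), and 201 against 120 CPM in NF2 KO cells, a ratio of 1.67 (1.59 to 1.76). Adam10 had ratios of 1.26 (1.20 to 1.32) and 1.57 (1.502 to 1.63) on the same range. Notch4 had ratios of 1.08 (1.005 to 1.17) and 1.55 (1.45 to 1.65), so its contrast along the tip range was larger in the NF2 KO library, with intervals that did not overlap. Hey1 went the other way in control, at 21.4 against 50.3 CPM, a ratio of 0.426 (0.352 to 0.511). In NF2 KO cells its ratio was 0.808 (0.595 to 1.08). Control cells high for tip markers thus held more Dll4 RNA and less Hey1 RNA. The pattern was not particular to tip markers. Along the hypoxia range Dll4 had ratios of 1.11 (1.05 to 1.18) in control and 1.36 (1.29 to 1.43) in NF2 KO cells, and Hey1 was also lower. Among clusters with at least 30 control cells, the tip list was highest in the hypoxia-like cluster 6, at 11877 CPM in control. The 2 ranges were not separated.

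Along the hypoxia range Hey1 was lower, and Rbpj higher, in the upper cells. Hey1 read 9.51 against 53.0 CPM in control (ratio 0.180, 0.1345 to 0.235), with 0.18 in each control run, and 3.17 against 6.93 CPM in NF2 KO cells (ratio 0.457, 0.312 to 0.651). Rbpj had ratios of 1.81 (1.56 to 2.11) and 1.43 (1.27 to 1.60). Along the capillary range Hey1 was higher, at 77.05 against 37.1 CPM in control (ratio 2.08, 1.84 to 2.34) and 13.2 against 4.80 CPM in NF2 KO cells (2.74, 2.16 to 3.46). This was not particular to capillary markers. Hey1 ratios in control and NF2 KO cells were 1.98 and 2.74 along the pan-endothelial range and 1.69 and 1.62 along the venous range. Jag1 was low in control cells high for interferon genes (ratio 0.370, 0.271 to 0.493), and the ratio was 0.832 (0.675 to 1.02) in NF2 KO cells.

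**Figure D4:**
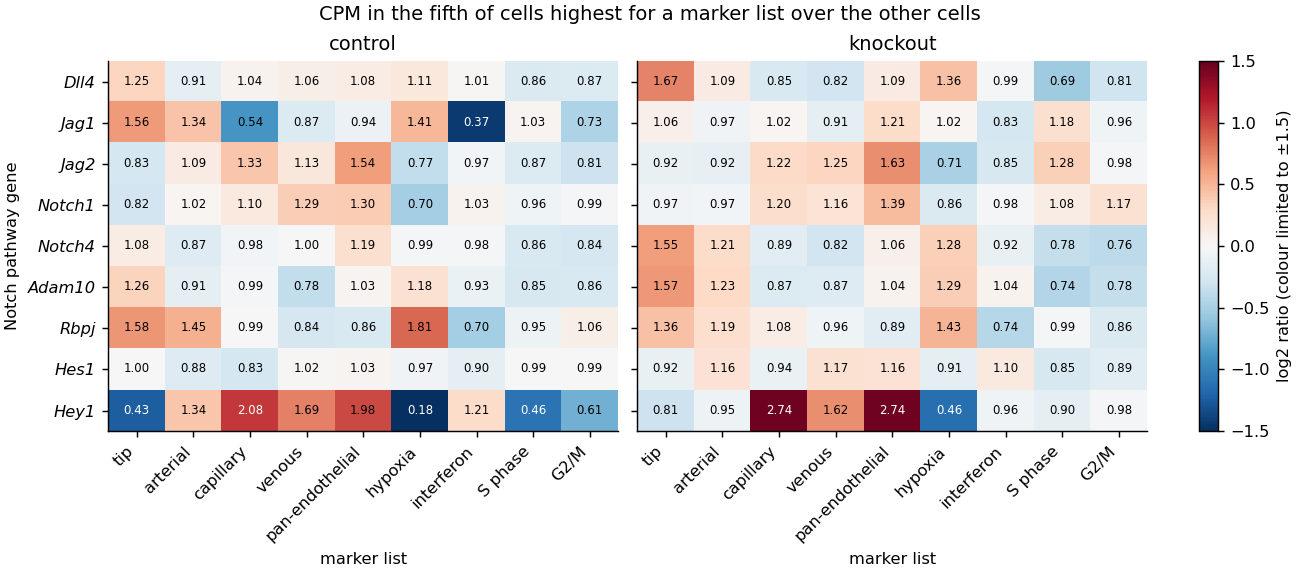
Ratio of the level in the cells highest for each marker list to the level in the other cells, for control (left) and NF2 KO cells (right); colour is the log2 ratio, limited to ±1.5, and the printed values are the ratios. Hey1 shows the strongest contrasts, from 0.18 for hypoxia to 2.08 for capillary markers in control.

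In single cells the share with a UMI followed the summed levels. After thinning to 5000 UMIs Dll4 was seen in 60.6% of 1256 control cells (exact 95% interval 57.8 to 63.3) and 44.7% of 2657 NF2 KO cells (42.8 to 46.6). Hey1 was seen in 15.6% (13.6 to 17.7) and 2.82% (2.23 to 3.53). Without thinning the shares were 86.2% and 74.4% for Dll4 and 37.5% and 8.25% for Hey1. Free RNA can add UMIs to any cell: thinned to 1000 UMIs, Dll4 was seen in 19.5% of retained control cells and in 14.9% of 821 control cells of the left-out clusters led by markers of other cells, and Hey1 in 4.75% and 4.99%. Those clusters had a median of 1853 UMIs per cell, against 18432, and carried the pan-endothelial list at 7601 CPM, so they are not cells that lack endothelial RNA. Per-cell shares of Hey1 are therefore read with its summed levels and not as counts of expressing cells.

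At 5000 UMIs per cell, the UMIs of ligands, receptors and targets were only weakly correlated across cells. Dll4 was seen in 60.6% of control cells at this depth and Hey1 in 15.6%. Sparse counts limit rho, so a low value does not show a weak relation. Over 19 pairs in each library, Spearman's rho across cells ran from −0.03 to 0.13, at the same 5000 UMIs in every cell. In 4 of these 38 comparisons the exact intervals of the shares did not overlap. Control cells with a Dll4 UMI had a Notch1 UMI in 52.8% (49.2 to 56.4) of cases, against 44.6% (40.2 to 49.1) of cells with none. Control cells with a Notch1 UMI had Notch4 in 51.0% against 42.3%, and Hey1 in 19.3% (16.2 to 22.6) against 12.01% (9.58 to 14.8). In the NF2 KO library only Dll4 with Hes1 stood apart, at 55.5% (52.6 to 58.3) against 49.97% (47.4 to 52.6). Of these 4, Notch1 with Hey1 was apart in control run 2 alone, at 18.3% against 7.84%, and the other 3 in no single run. Notch1 with Hes1 went opposite ways in the control runs, at 71.0% against 57.5% in run 1 and 61.6% against 67.6% in run 2.

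Hey1 also differed along the count of Dll4 UMIs. In control cells with 0, 1, 2 and at least 3 Dll4 UMIs of 5000, Hey1 averaged 0.156, 0.176, 0.234 and 0.442 UMIs per cell (495, 387, 209 and 165 cells). In NF2 KO cells it averaged 0.0259, 0.0256, 0.0532 and 0.0920 UMIs. With both control runs together the top class had an interval of 0.347 to 0.556, above those of the lower classes. In control run 2 alone it read 0.544 (0.383 to 0.750), also above them. In control run 1 alone it read 0.371 (0.260 to 0.514), which overlapped the intervals of all the lower classes. Hey1 was thus lower in the NF2 KO library at every count of Dll4 UMIs. The rise in control was not particular to Hey1. From 0 to at least 3 Dll4 UMIs, Notch1 went from 0.626 (0.558 to 0.700) to 0.939 (0.797 to 1.10) UMIs per control cell. Notch4 went from 0.586 to 0.830 and Hes1 from 1.37 to 1.78, also with intervals apart. Jag1, Jag2 and Adam10 had overlapping intervals in these 2 classes. Rbpj differed little, at 0.158, 0.132, 0.144 and 0.176 UMIs in control.

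**Figure D5:**
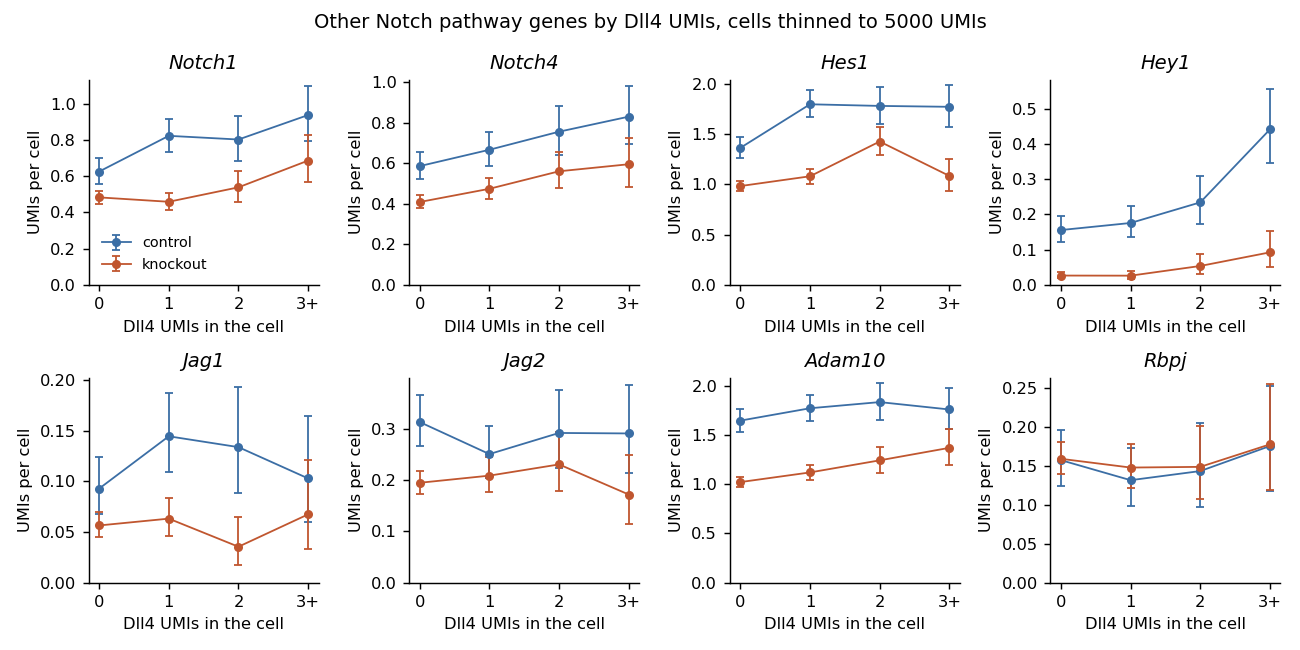
Mean UMIs per cell of 8 Notch pathway genes in cells with 0, 1, 2 and 3 or more (3+) Dll4 UMIs after thinning to 5000 UMIs, for control (blue) and NF2 KO cells (orange), with exact 95% Poisson intervals. Control Hey1 goes from 0.156 to 0.442 UMIs per cell, and the 2 libraries overlap for Rbpj.

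The genes with the most similar patterns were found by Pearson's r of log2 levels over 15 sums, each 1 cluster in 1 library, among 5840 genes. Both libraries are in these sums, so a difference between them counts toward r. For Dll4 the most alike were Notch4 (0.93), Sipa1 (0.92) and Kcne3 (0.92). For Notch1 they were Tle3 (0.93), Sh2b3 (0.93) and Efnb2 (0.91), and Hey1 stood at place 6 (0.89). For Hey1 they were Efnb2 (0.97), Adgre5 (0.93) and Nav1 (0.90). For Hes1 they were Sema4c (0.92), Atp11a (0.90) and Sh3pxd2a (0.89), and Jag1 was under the CPM minimum. The 2 receptors were not alike (r = 0.24): Notch4 lay with Dll4, and Notch1 with Hey1. Rbpj had r from −0.28 to 0.22 with the other members.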

How the data were processed

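The authors deposited natural log values, 1 table per library, with cells as columns. The files fit ln(1 + 10000 × UMIs of the gene / UMIs of the cell) throughout, and whole UMIs were recovered for 100% of values, within 0.01 UMI. Cell Ranger 3.0.0, Seurat 3.1.1 and mm10 are named per the submitters' processing notes. The members and gene lists were chosen with earlier results of these data known.

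A minimum of 500 genes and 1000 UMIs and a limit of 10% mitochondrial UMIs left 2572 control and 3312 NF2 KO cells. The automatic doublet threshold marked 2 control cells and no other and had not worked, so the highest-scoring 5% per library were removed. Cells were clustered with scanpy 1.11.5 (2000 variable genes, 30 components, 15 neighbours, resolution 0.8) without the Notch lists. Clusters that were shallow, led by markers of other cells or under 50 cells (835 control and 309 NF2 KO cells), and then cells under 3000 UMIs (262 and 84), were left out. These limits were set after the cells had been seen.

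UMIs were summed per library. Ratios have exact conditional intervals, levels exact Poisson and shares Clopper-Pearson intervals, all at 95%. The size rule was tested on simulated data. Thinning was to 5000 UMIs. Gene positions are from GENCODE M21. Clusters were named only from at least 3 leading markers. Named genes were the 9 members, up to 4 called genes per further role, the 3 genes most like Dll4, Notch1, Jag1, Hes1 and Hey1, and markers where they name a cluster or move with a result. Other genes named in the text (Notch2, Notch3, Dll1, Egfl7, Nrarp, Hey2, Ncstn, Aph1a, Psenen, Psen2, Mfng, Gja4 and Sema3g) were chosen after their values were seen. Alternatives left out a run, a cluster or cell group and changed the scale, thinning, doublets, fold and CPM minimum.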

Additional observations from a re-analysis of the deposited data

How the results depend on the processing

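The count of 6 members lower in the NF2 KO library was 3 with clusters that have a leading marker of another cell type left out, 3 with cluster 4 left out (chosen after seeing the data) and 1 (Hey1) at 2-fold. Leaving out 1 run gave 4 to 7. It was 4 under thinning to 2000 UMIs, upper-quartile scaling, the mean over cells or equal cluster weights. No setting called a member higher. The share of all genes called under each setting is not given here, so these counts describe the members only. Over 18 alternatives of cells, thinning or scale, with fold and CPM minimum kept, Dll4 and Hey1 were called lower in 18. Adam10 was called lower in 16, Notch1 in 15, Hes1 in 11 and Notch4 in 8, and no called ratio reversed. The changed folds and CPM minimums are not among the 18. Dll4 was not called at 2-fold, and Hey1, at 44.0 and 6.18 CPM, was not tested at the highest CPM minimum. Over the 18, Hey1 stayed between 0.105 and 0.172, Dll4 between 0.549 and 0.655. Jag1 ran from 0.486 to 0.792. With clusters made from all genes the control Hey1 contrast between clusters, 7.84-fold, became 21.5-fold, and at resolution 0.4 the NF2 KO Dll4 contrast, 5.51-fold, became 3.45-fold. Pairs with separate intervals, 4 at 5000 UMIs, were 2 at 2000 and 8 at 10000 UMIs. Depth limits Jag1, Hey1 in NF2 KO cells and the pairs. No paired analysis was possible because each group is 1 library and the runs are not stated to match.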
